A study of Mus musculus with 39 samples.

Results

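Regulators of the unfolded protein response and of secretion were followed in RNA from mouse cortical bone, in 39 RNA sequencing libraries. The set holds 10 genes of the 37583 in the count files, chosen by symbol and matched through the Ensembl gene identifiers: Creb3l1, Creb3l2, Atf4, Atf6, Xbp1, Hspa5, Ddit3, Hsp90b1, Pdia4 and Dnajb9. All 10 were found and passed the filter on low counts in both experiments. The study compared 2 mouse models of increased trabecular bone mass, each with WT libraries of its own. The first experiment had 8 libraries labelled Sik2/3 DKO, for deletion of the salt-inducible kinases Sik2 and Sik3, which parathyroid hormone signalling inhibits, and 8 labelled WT. The second had 12 libraries of C1HR mice, labelled Col1a1-Pth1r H223R, in which the type I collagen promoter drives a constitutively active parathyroid hormone receptor in cells of the osteoblast lineage, and 11 of their WT. The bones were femurs without epiphyses. The driver of the Sik2/3 deletion, the ages and the strains are not given in the sources used here, and nothing in the labels says that libraries came from separate animals, so p-values measure the spread between these libraries.

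Secreted and membrane proteins fold in the endoplasmic reticulum (ER), and the unfolded protein response adjusts folding capacity to the load. Its sensors are the kinase PERK (Eif2ak3), which favours translation of the factor ATF4, the RNase IRE1 (Ern1), which splices Xbp1 mRNA, and ATF6, which proteases in the Golgi cut to release a transcription factor. CREB3L1, also called OASIS, and CREB3L2 are ER-bound factors released by the same proteases, and CREB3L1 is known in osteoblasts as an activator of type I collagen transcription. Counts per gene show transcript abundance, and not Xbp1 splicing, Atf4 translation or the cutting of ATF6 and CREB3L1.

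The promoters of the chaperone genes Hspa5 and Hsp90b1 and of Creb3l2 are shown because the results that follow set the chaperones beside the CREB3 factors. Each line gives the 250 bases before the start site, 5′ to 3′ on the strand of the gene, from the RefSeq promoter table on build GRCm38.p6. Capitals mark matches to the ER stress response element (ERSE, CCAAT and CCACG with 9 bases between them) or to TGACGTG, a core bound by ATF6 and XBP1 in vitro. Hspa5 lies at chr2:34771840-34772089 on the plus strand, Hsp90b1 at chr10:86705445-86705694 on the minus strand and Creb3l2 at chr6:37442149-37442398 on the minus strand.
Hspa5: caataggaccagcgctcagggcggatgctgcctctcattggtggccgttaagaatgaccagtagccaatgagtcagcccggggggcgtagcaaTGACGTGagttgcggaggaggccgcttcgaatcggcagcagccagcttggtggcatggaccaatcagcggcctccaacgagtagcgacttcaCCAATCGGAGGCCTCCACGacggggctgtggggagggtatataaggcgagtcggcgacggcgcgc
Hsp90b1: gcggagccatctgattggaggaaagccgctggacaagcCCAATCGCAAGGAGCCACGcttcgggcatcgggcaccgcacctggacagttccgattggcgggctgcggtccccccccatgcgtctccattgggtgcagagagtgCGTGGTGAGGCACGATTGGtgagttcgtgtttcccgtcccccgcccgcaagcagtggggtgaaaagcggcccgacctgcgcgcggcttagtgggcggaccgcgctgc
Creb3l2: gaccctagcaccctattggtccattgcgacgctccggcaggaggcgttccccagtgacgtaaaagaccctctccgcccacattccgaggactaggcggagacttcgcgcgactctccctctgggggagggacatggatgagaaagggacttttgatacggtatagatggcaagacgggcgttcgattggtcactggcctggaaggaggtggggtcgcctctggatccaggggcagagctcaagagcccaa
Hspa5 held an ERSE at -65 to -47 and TGACGTG at -157 to -151, counted from the start site. Hsp90b1 held one at -212 to -194 and, on the other strand, at -107 to -89. The 5 motifs searched on both strands were these 2, ERSE-II (ATTGG and CCACG with 1 base between them), the cAMP response element TGACGTCA and the ATF4 motif TGATGNAAN. The motifs differ in length, and no match of one overlapped a match of another in the windows shown. No match was found in the windows of Creb3l2, Atf4, Xbp1, Ddit3, Pdia4 and Dnajb9, which says only that these letters are not in those 250 bases. The table held windows for 8 of the 10 genes. Of 32851 windows of this length, the ERSE occurred in 37 (0.113%), ERSE-II in 10 (0.0304%), TGACGTG in 542 (1.65%), TGACGTCA in 508 (1.55%) and TGATGNAAN in 1129 (3.44%).

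The labels were first set against the targeted genes. Sik2 went against its label: it averaged 29.7 ± 6.60 CPM (the count scaled to library size) in libraries labelled DKO and 19.1 ± 3.20 CPM in libraries labelled WT (SD, n = 8 each), a log2 difference of 0.64 (SE 0.14, adjusted p = 0.00127). Of the exonic bases of Sik2, 16.2% overlap Ppp2r1b, and reads were counted without strand. Whether the labels of this experiment are exchanged was not settled, so every direction given for labelled DKO rests on them and would turn if they were. Sik3 averaged 90.0 ± 15.02 CPM in labelled DKO and 104 ± 25.3 CPM in labelled WT (adjusted p = 0.223), and counts over a whole gene also cover exons outside a deletion. Neither kinase is targeted in C1HR, yet Sik2 averaged 13.3 ± 2.71 CPM there and 20.2 ± 1.80 CPM in WT. The log2 fold change was -0.60 (SE 0.09, adjusted p = 1.47e-06), and that of Sik3 was 1.01 (SE 0.08, adjusted p = 2.04e-11). Both thus also differed where no deletion was made, and the part of cell content was not tested. Pth1r averaged 486 ± 69.1 CPM in C1HR (n = 12) and 131 ± 24.3 CPM in its WT (n = 11; log2 fold change 1.89, SE 0.10, adjusted p = 8.68e-15). Pth1r is also on the list of osteoblast markers used below. Untargeted in the Sik2/3 experiment, it averaged 215 ± 54.9 CPM in labelled DKO and 436.5 ± 116.7 CPM in labelled WT. That log2 fold change was -1.02 (SE 0.19, adjusted p = 0.000326), so Pth1r also differed where there is no transgene. Libraries labelled WT 5 and 6 stood apart: on the first principal component (63.3% of variance) they lay at 22.8 and 17.5, with the labelled DKO libraries at 26.7 to 81.1 and the other labelled WT libraries at -101.8 to -60.1. The design text counts 6 WT for this experiment. Other labelled WT libraries of neighbouring number also lay close: 1 and 2 at -101.8 and -100.6, 3 and 4 at -78.6 and -79.5, 7 and 8 at -60.1 and -60.9. Labelled DKO 7 and 8, at 26.7 and 59.5, did not. Whether neighbours share an animal or a preparation is not stated. The tests treat each library as independent, and leaving out 1 library keeps its neighbour. C1HR 8 and 9 lay at 19.4 and 10.7, between the other C1HR libraries (64.1 to 98.2) and the WT (-96.8 to -67.8; 83.8% of variance). Results below are given with the 4 libraries that stood apart, labelled WT 5 and 6 and C1HR 8 and 9. For the 10 regulators and the pathway genes named, a call that changed without them is given beside the result.

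Marker genes of other cells differed between the groups in both experiments. The summed level of 10 granulocyte markers was 9812 to 24730 CPM in labelled DKO and 865 to 15840 CPM in labelled WT, where WT 5 and 6 had 7986 to 15840 and the other 6 had at most 2946. It was 245 to 5690 CPM in C1HR and 13420 to 19980 CPM in its WT. The sum of 9 erythroid markers was 3890 to 12610 CPM in labelled DKO and 524 to 5503 CPM in labelled WT, where WT 5 and 6 had 2478 to 5503 and the other 6 at most 953. It was 612 to 12920 CPM in C1HR against 24770 to 56790 CPM in its WT, and C1HR 8 and 9 had 10480 to 12920 while the other 10 C1HR libraries had at most 2404. In labelled DKO 11 of 11 B lineage, 9 of 10 granulocyte, 7 of 9 erythroid and 7 of 7 megakaryocyte markers rose. In C1HR 10 of 11 B lineage, 10 of 10 granulocyte, 9 of 9 erythroid and 7 of 7 megakaryocyte markers fell. Osteoblast markers, which define the labelled tissue, were present in every group: their sum was 73980 to 204900 CPM in labelled DKO and 89800 to 267700 CPM in labelled WT, with 5 of 12 lower and 7 not called. WT 5 and 6 had 89800 to 147600 of that sum and the other 6 labelled WT libraries 184600 or more. It was 258200 to 447800 CPM in C1HR and 55170 to 99990 CPM in its WT, with 12 of 12 higher. Plasma cell markers, from cells with much ER, were mixed, with 3 of 7 higher and 3 lower in labelled DKO and 3 of 7 higher and 4 lower in C1HR. Of 9 osteoclast markers 9 fell in labelled DKO and 9 rose in C1HR; of 7 mast cell markers 1 rose and 6 fell in labelled DKO, and of 6 tested 5 rose and 1 fell in C1HR; of 7 skeletal muscle markers 1 fell and 6 were not called in labelled DKO, and 7 were not called in C1HR. None of the markers was at 0 in every library of any group. In bulk tissue, fewer cells of a type and less RNA per cell cannot be told apart.

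Of the 10 regulators, 5 fell in the libraries labelled DKO, Creb3l1, Creb3l2, Atf6, Pdia4 and Dnajb9. By edgeR 0 rose, and also 0 at an unadjusted p under 0.05, while limma voom called 1 higher, Hsp90b1. Over all 15479 genes tested in this experiment 55.0% passed the same threshold (adjusted p under 0.05), 30.9% lower and 24.1% higher. In C1HR 6 of the 10 rose, Creb3l1, Creb3l2, Atf6, Xbp1, Pdia4 and Dnajb9, and 1 fell, Ddit3. There 84.3% of 13976 genes passed, 43.7% higher and 40.6% lower, so a call by itself sets no gene apart. The median log2 fold change of the members was -0.23 in labelled DKO and 0.42 in C1HR, beside -0.09 and 0.05 over all genes tested. The groups did not overlap for 0 members in the Sik2/3 experiment (10.0% of all genes) and for 5 in the C1HR experiment (52.8% of all genes): Creb3l1, Creb3l2, Xbp1, Pdia4 and Dnajb9. Without labelled WT 5 and 6 the first count was 4 (36.2% of genes), and without C1HR 8 and 9 the second was 6 (57.8%).

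**Figure D1:**
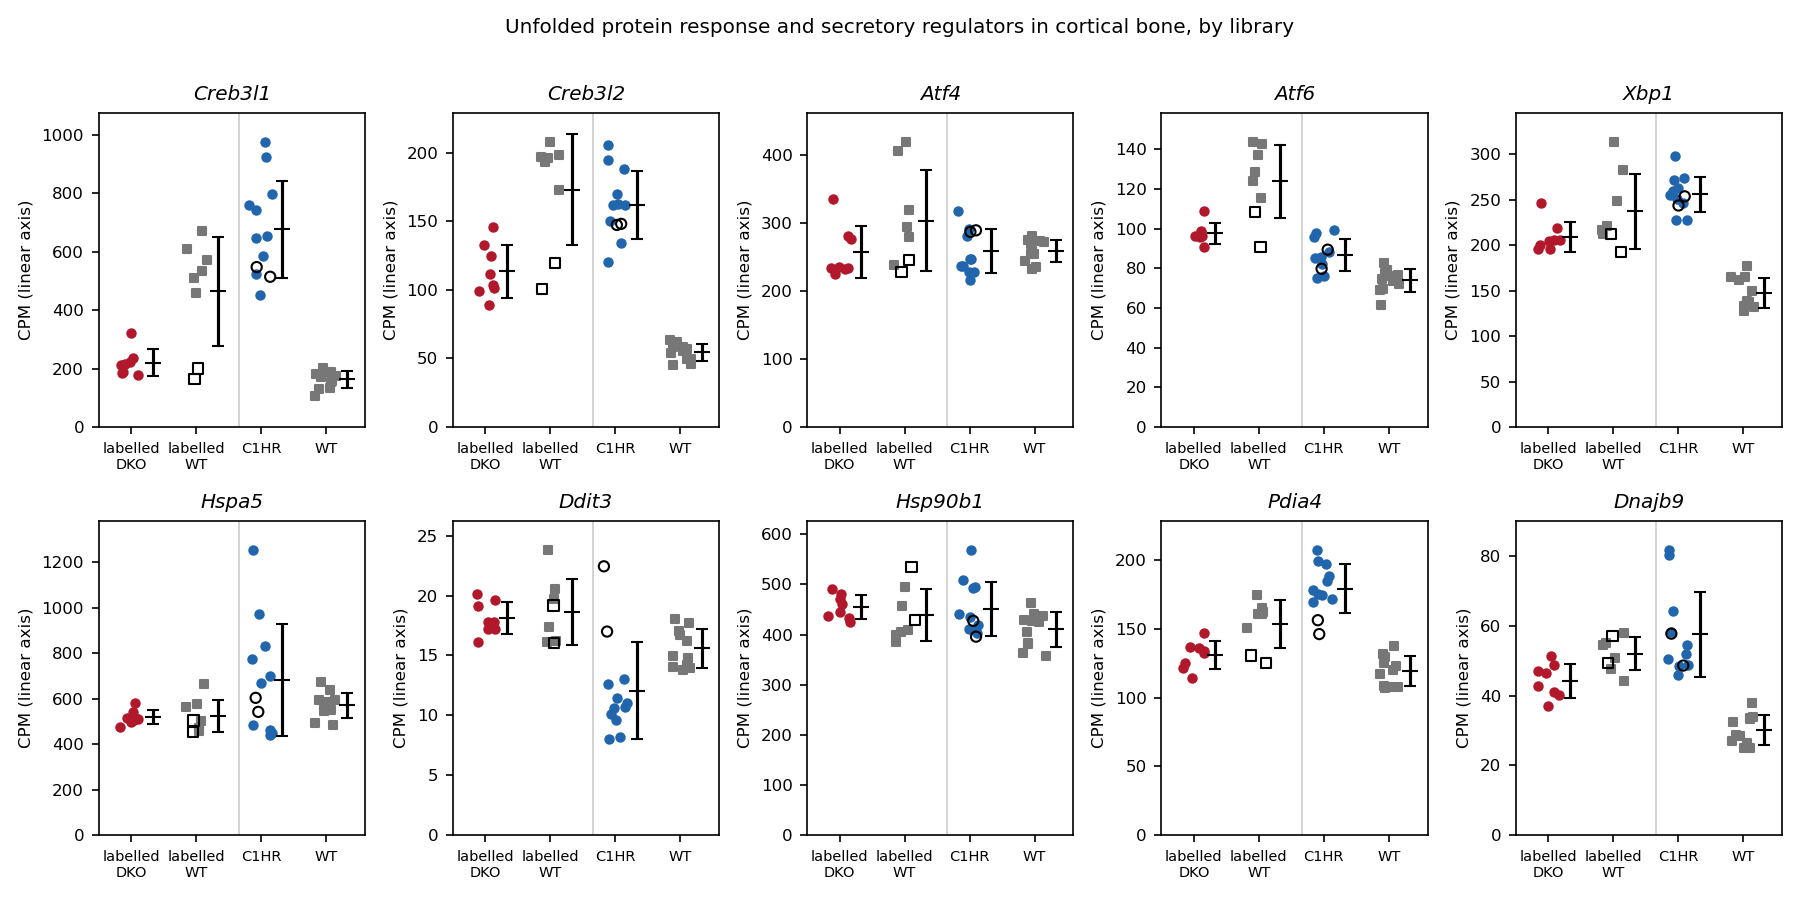
Level of each regulator in every library (CPM, linear axis from 0), with bars for the mean and SD beside the points; open symbols are labelled WT 5 and 6 and C1HR 8 and 9. In Creb3l1 the C1HR libraries (452 to 977 CPM) lie above all of their WT (108 to 201 CPM), and labelled WT 5 and 6 lie among the labelled DKO libraries.

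Creb3l1, the ER-bound collagen activator, had the largest log2 fold change of the 10 in both experiments. Its lowest, median and highest libraries had 179.6, 214 and 323 CPM in labelled DKO, against 163, 522 and 672 CPM in labelled WT. Labelled WT 5 and 6 were at 163 and 199.9 CPM, within the labelled DKO range, while the other 6 labelled WT libraries had 460.2 to 672 CPM, above every labelled DKO library. The log2 fold change was -1.08 (SE 0.25, adjusted p = 0.00209), a level 2.11-fold lower in labelled DKO, and -1.31 (SE 0.13, adjusted p = 7.49e-07) without WT 5 and 6. In C1HR Creb3l1 had 452, 650.3 and 977 CPM in the lowest, median and highest libraries, against 108, 172 and 201 CPM in WT. All 12 C1HR libraries were above all 11 WT libraries, and the log2 fold change was 2.06 (SE 0.13, adjusted p = 1.8e-13), 4.16-fold. Its exons, on chromosome 2 from 91822485 to 91864659 (mm9, minus strand), overlap no other annotated gene.

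Creb3l2, the paralog that acts in cartilage collagen secretion, moved the same ways by less. Its lowest, median and highest libraries had 88.9, 107 and 146 CPM in labelled DKO, against 101, 194 and 208 CPM in labelled WT. Labelled WT 5 and 6 were again within the labelled DKO range, at 101 and 119.7 CPM, and the other 6 labelled WT libraries were at 173 CPM or above. The log2 fold change was -0.61 (SE 0.15, adjusted p = 0.00295). In C1HR Creb3l2 had 120.2, 162 and 205 CPM, against 45.5, 55.6 and 63.4 CPM in WT, with no overlap (log2 fold change 1.57, SE 0.08, adjusted p = 5.98e-15).

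With the mean log2 levels of the erythroid, granulocyte and B lineage lists as covariates, the log2 fold change of Creb3l1 in labelled DKO turned to 0.49 (adjusted p = 0.0962) and that of Creb3l2 to 0.20 (adjusted p = 0.374). Of the 5 members that had fallen in labelled DKO, 0 passed in that fit by edgeR, and 1, Creb3l1, had an unadjusted p under 0.05 (0.0229, with the sign turned), while 2187 genes passed in all. In C1HR the same fit left Creb3l1 at 1.83 (adjusted p = 1.24e-05), and Creb3l2, Xbp1 and Dnajb9 also past the threshold. These lists differ between the groups themselves, and the part of the osteoblast markers in the results was not tested.

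Atf6, the cleaved sensor, changed little. It had 90.7, 96.5 and 109 CPM in the lowest, median and highest labelled DKO libraries, against 90.6, 126 and 144 CPM in labelled WT. The log2 fold change was -0.34 (SE 0.09, adjusted p = 0.00322). Labelled WT 5 and 6 were at 90.6 and 108.5 CPM, and the other 6 labelled WT libraries, at 115.6 CPM or more, were above every labelled DKO library. In C1HR Atf6 had 75.2, 85.7 and 99.4 CPM, against 61.6, 74.8 and 83.0 CPM in WT. The groups overlapped, and the rise of 0.23 (SE 0.05, adjusted p = 0.000428) was 0.12 with an adjusted p of 0.0511 without C1HR 8 and 9.

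Xbp1, the factor made active by IRE1 splicing and needed for professional secretory cells, passed the threshold in C1HR and not in labelled DKO. It had 228, 255 and 298 CPM in the lowest, median and highest C1HR libraries, against 127, 139 and 177 CPM in WT. Every C1HR library was above every WT library (log2 fold change 0.80, SE 0.06, adjusted p = 6.01e-12). In the Sik2/3 experiment it had 195, 205 and 247 CPM in labelled DKO, against 192, 219 and 314 CPM in labelled WT. That difference of -0.18 (SE 0.10) missed the threshold (adjusted p = 0.12), with a 95% interval of -0.38 to 0.01. Without WT 5 and 6 it was -0.22 (adjusted p = 0.0473).

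Atf4, the translationally controlled factor of the PERK branch, did not pass the threshold in either experiment. It had 226, 235 and 335 CPM in the lowest, median and highest labelled DKO libraries, against 228, 286 and 419.6 CPM in labelled WT (log2 fold change -0.24, SE 0.14, adjusted p = 0.146). Without WT 5 and 6 the value was -0.31 and passed (adjusted p = 0.0458). In C1HR it had 216, 246 and 317 CPM, against 232, 259 and 281 CPM in WT, a log2 fold change of 0.00 with a 95% interval of -0.13 to 0.12. Without C1HR 8 and 9 its log2 fold change was -0.15 (adjusted p = 0.0361), in a fit whose median over all genes was -0.06, beside 0.05 with them.

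Ddit3, which encodes CHOP, the pro-apoptotic factor of prolonged ER stress, was the member with the fewest reads, 107 to 508 per library. It fell in C1HR, with 8.05, 10.8 and 22.5 CPM in the lowest, median and highest libraries, against 13.8, 14.98 and 18.02 CPM in WT (log2 fold change -0.37, SE 0.13, adjusted p = 0.0122). The 2 highest C1HR libraries were C1HR 9, at 22.5 CPM, and C1HR 8, at 17 CPM, and the other 10, at 8.05 to 13 CPM, were all below the WT range. Without those 2 libraries the change was -0.68 (adjusted p = 5.43e-08). With the 3 blood lineage covariates it turned to 0.40 and did not pass (adjusted p = 0.115). In the Sik2/3 experiment it had 16.1, 17.8 and 20.1 CPM in labelled DKO, against 16.1, 18.3 and 23.9 CPM in labelled WT, a log2 fold change of -0.04 with a 95% interval of -0.21 to 0.13. Exons of Ddit3 overlap Mars and another annotated gene over 4.73% of their bases.

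Hspa5 encodes BiP, the main ER chaperone and a standard readout of the response, and it passed in neither experiment. It had 477, 513 and 582 CPM in the lowest, median and highest labelled DKO libraries, against 455, 503.5 and 665 CPM in labelled WT. The log2 fold change was -0.02 with a 95% interval of -0.19 to 0.15. In C1HR Hspa5 had 440.0, 636 and 1257 CPM, against 486.5, 569 and 672 CPM in WT. The C1HR libraries reached both below and above the whole WT range: 4 of 12 were below the lowest WT library and 5 were above the highest (log2 fold change 0.26, SE 0.15, adjusted p = 0.107). The SD was 248 CPM in C1HR and 56.0 CPM in WT.

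Hsp90b1, which encodes the ER chaperone GRP94, was also near its WT level. It had 425, 452 and 491 CPM in the lowest, median and highest labelled DKO libraries, against 384, 419 and 535 CPM in labelled WT (log2 fold change 0.05, 95% interval -0.10 to 0.21). In C1HR it had 396, 432 and 569.5 CPM, against 357, 426 and 463 CPM in WT (log2 fold change 0.14, SE 0.06, adjusted p = 0.0536). The call in C1HR turned on single libraries, since 9 of the 23 fits that left out 1 library passed, and without both C1HR 8 and 9 the value was 0.04 (adjusted p = 0.544). Exons of other annotated genes overlap 15.7% of its exonic bases.

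Pdia4, a protein disulfide isomerase of the ER, and Dnajb9, the BiP cochaperone ERdj4, moved with the CREB3 factors by less. Pdia4 had 146, 177 and 208 CPM in the lowest, median and highest C1HR libraries, against 107, 120.1 and 138 CPM in WT (log2 fold change 0.58, SE 0.06, adjusted p = 2.03e-09). Dnajb9 had 45.9, 53.2 and 82.0 CPM in C1HR, against 24.9, 28.7 and 37.8 CPM in WT (log2 fold change 0.94, SE 0.10, adjusted p = 3.99e-09). For both genes every C1HR library was above every WT library. In labelled DKO Pdia4 had 114, 133 and 147 CPM, against 125, 161 and 174 CPM in labelled WT, and Dnajb9 had 36.95, 44.6 and 51.3 CPM, against 44.2, 52.7 and 58.1 CPM. These groups overlapped, and both fell, with log2 fold changes of -0.23 (adjusted p = 0.0176) for Pdia4 and -0.24 (adjusted p = 0.018) for Dnajb9. Under size factors of DESeq2 in place of TMM both missed the threshold (adjusted p = 0.0626 and 0.0624), and Dnajb9 also missed it without WT 5 and 6 (adjusted p = 0.0591). With the blood lineage covariates, Pdia4 in C1HR was at 0.24 (adjusted p = 0.139).

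**Figure D2:**
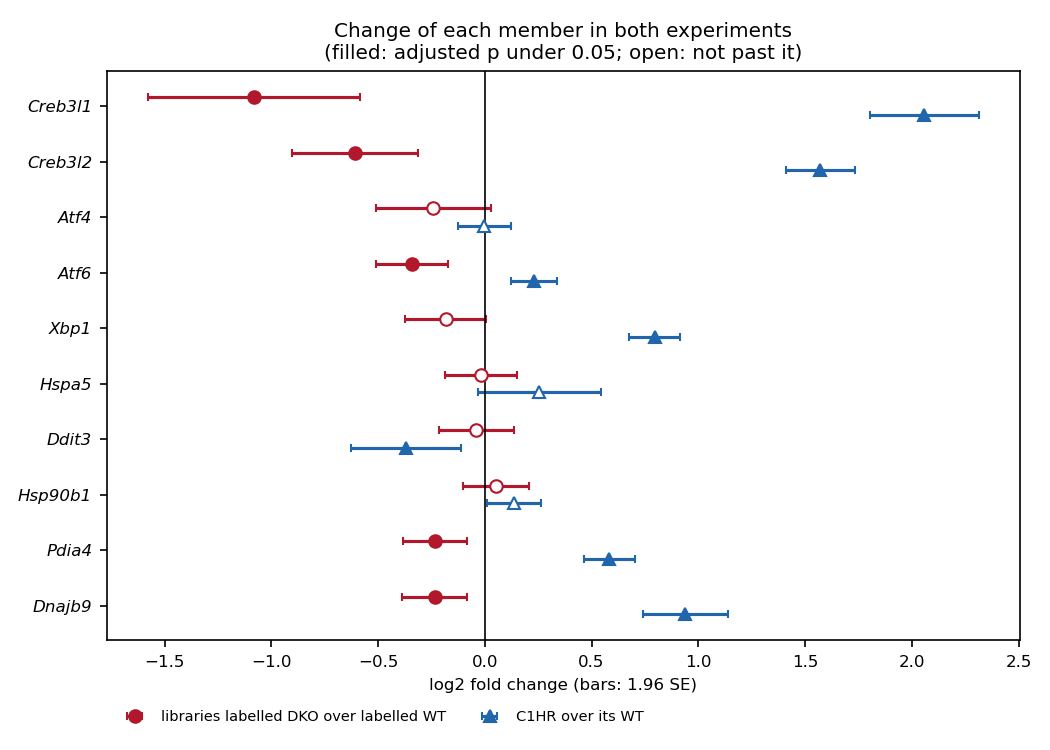
Log2 fold change of each regulator with its 95% interval, labelled DKO over labelled WT (circles) and C1HR over its WT (triangles); filled symbols have an adjusted p under 0.05. Creb3l1 lies farthest out on both sides, at -1.08 and 2.06, and Hspa5, Hsp90b1 and Atf4 have open symbols in both.

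The difference of the effects, C1HR minus its WT less labelled DKO minus labelled WT, was tested in 1 fit of all 39 libraries. It was 3.07 for Creb3l1 (SE 0.27, adjusted p = 5.35e-13), 2.12 for Creb3l2 (SE 0.16, adjusted p = 1.88e-14), 1.11 for Dnajb9 and 0.92 for Xbp1. Pdia4, at 0.75, Atf6, at 0.51, and Ddit3, at -0.40 (adjusted p = 0.0341), also passed. Hspa5 (0.21, 95% interval -0.18 to 0.61), Atf4 (0.17, -0.10 to 0.45) and Hsp90b1 (0.02, -0.18 to 0.22) did not. That makes 6 of 10 members higher and 1 lower, beside 80.2% of 15387 genes past the threshold, 42.0% higher and 38.1% lower. The 5 members that both fell in labelled DKO and rose in C1HR are to be read beside 25.8% of 13821 genes that did so. These differences rest on the labels that Sik2 goes against. With labelled DKO and labelled WT exchanged, the difference in the same fit was 1.01 for Creb3l1 (SE 0.26, adjusted p = 0.00148), 0.99 for Creb3l2, 0.73 for Dnajb9, 0.64 for Xbp1 and 0.38 for Pdia4. Those 5 members still passed, beside 30.1% of genes higher and 26.5% lower, while Atf6 (-0.09, adjusted p = 0.441) and Ddit3 (-0.39, adjusted p = 0.0527) did not. Under that exchange the 5 members that moved in opposite directions in the 2 experiments would have moved the same way in both.

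Creb3l1 was then set against Creb3l2 within each library, as the log2 ratio of their CPM, which does not depend on library size. Over the 12 C1HR libraries the ratio averaged 2.04 ± 0.25 (SD), and over the 11 libraries of their WT 1.55 ± 0.15. Every C1HR library, from 1.80 up, was above every WT library, up to 1.77, and the difference was 0.48 (2-sided permutation test with 100000 resamples, p = 2e-05, the smallest they can give). In the Sik2/3 experiment the ratio averaged 0.95 ± 0.25 in labelled DKO and 1.32 ± 0.42 in labelled WT (SD, n = 8 each), a difference of -0.37 with overlapping groups (exact 2-sided permutation test, p = 0.0528; smallest possible 0.000155). Without labelled WT 5 and 6, which had ratios of 0.70 and 0.74, the difference was -0.57 (exact permutation p = 0.00133). Leaving out labelled DKO 7 alone, labelled WT 5 alone or labelled WT 6 alone also brought p under the threshold (0.0308, 0.0152 and 0.019, exact permutation tests). The other labelled WT libraries had ratios of 1.14 to 1.77. The groups also differ in cell content, and its part in the ratio was not tested.

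**Figure D3:**
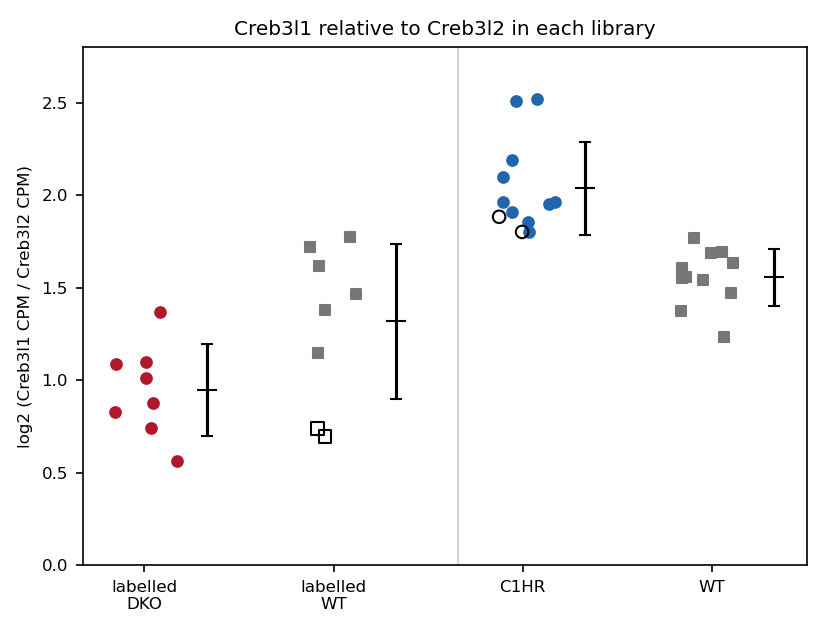
Log2 ratio of Creb3l1 to Creb3l2 CPM in each library, with mean and SD; open symbols are labelled WT 5 and 6 and C1HR 8 and 9. The C1HR libraries lie at 1.80 to 2.52 and their WT at 1.23 to 1.77, while labelled DKO and labelled WT overlap.

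Levels of different genes can be compared per kilobase of exon. In C1HR Creb3l1 stood first of the 10 at 260.1 ± 63.9 CPM per kb (SD, n = 12), followed by Hspa5 at 194 ± 70.5, Atf4 at 149.9 ± 18.9 and Hsp90b1 at 112 ± 13.3. That order is of means: the range of Creb3l1 (174 to 375 CPM per kb) overlapped those of Hspa5 (125 to 358) and Atf4 (125 to 184) and not that of Hsp90b1 (up to 141). In their WT Creb3l1 held place 4 at 62.5 ± 11.1 CPM per kb (n = 11), after Hspa5 at 163 ± 15.9, Atf4 at 150.2 ± 9.62 and Hsp90b1 at 102 ± 8.60, each of which had no library as low as the highest for Creb3l1. In labelled DKO Creb3l1 was also at place 4, with 84.6 ± 17.8, with a range that overlapped that of Hsp90b1 above it and Xbp1 below it. In labelled WT Creb3l1 (179 ± 71.7), Atf4 (176 ± 42.8) and Hspa5 (149 ± 20.5) had the highest means and overlapped. The range of Creb3l1 there (62.7 to 258 CPM per kb) also overlapped those of Hsp90b1, Xbp1 and Pdia4. Creb3l2 was low per kb, at 22.2 ± 3.40 in C1HR and 7.48 ± 0.84 in its WT, where it stood last but overlapped Ddit3. Levels are not compared between the experiments, which were scaled separately.

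Among libraries of the same group, Creb3l1 varied with Creb3l2, while its relation to the chaperones differed from group to group. After each group mean was subtracted, Pearson's r of log2 CPM with Creb3l1 was 0.82 for Creb3l2 over 39 libraries, against -0.18 for Hspa5 and -0.27 for Hsp90b1. Without labelled WT 5 and 6 and C1HR 8 and 9 these were 0.63, -0.48 and -0.17 over 35 libraries. Within single groups the r of Creb3l1 with Creb3l2 was 0.54 for labelled DKO (n = 8), 0.94 for labelled WT (n = 8), 0.70 for C1HR (n = 12) and 0.88 for its WT (n = 11). With Hspa5 it was 0.14 for labelled DKO and 0.51 for labelled WT, and -0.65 for C1HR and -0.39 for its WT. With Dnajb9 it was 0.80 for labelled DKO and -0.04 for labelled WT, and -0.65 for C1HR and 0.16 for its WT. With Atf6 it was 0.26 for labelled DKO, 0.89 for labelled WT, 0.45 for C1HR and 0.44 for its WT. Creb3l2 with Atf6 had 0.08, 0.90, 0.89 and 0.44 in the same order. The pooled values thus join unlike relations. The 5 genes most like Creb3l1 of 13820 were Fscn1 (r = 0.98), Gorasp2 (0.96), Ckap4 (0.95), Kctd17 (0.95) and Zdhhc9 (0.94), which kept 0.87 to 0.95 without the 4 libraries, while Creb3l2 ranked 353. Col1a1, the type I collagen gene, ranked 23 at r = 0.91, and 2 at 0.91 without the 4 libraries. These correlations describe libraries that also differ in cell content, so no p is attached.

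**Figure D4:**
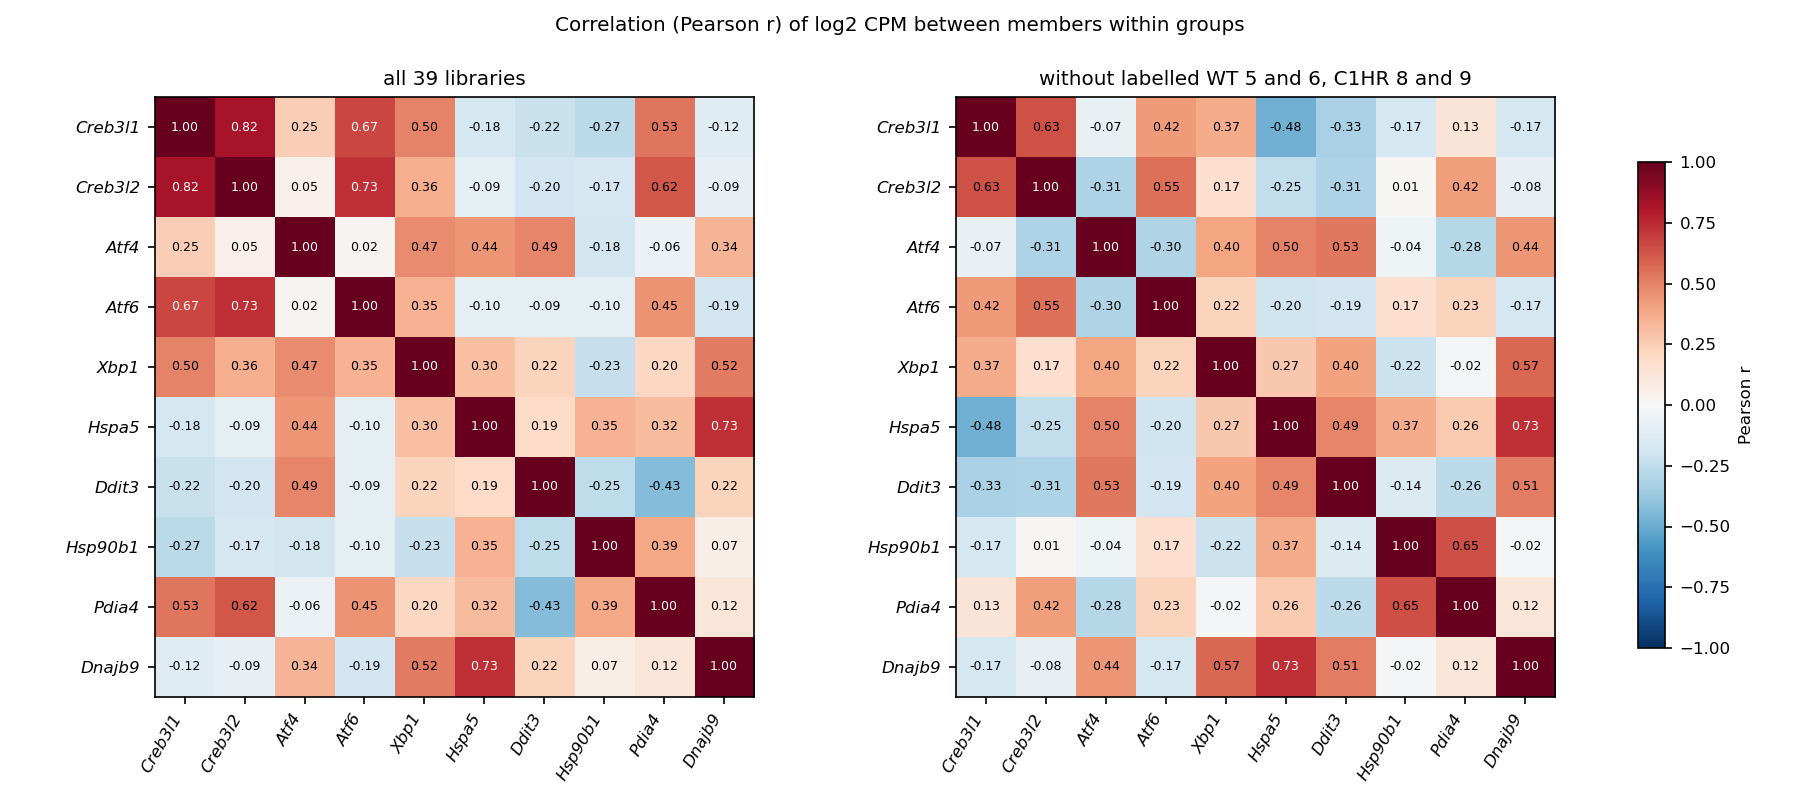
Pearson's r of log2 CPM between the 10 regulators after subtraction of group means, over all 39 libraries and without the 4 libraries that stand apart. Creb3l1, Creb3l2 and Atf6 form a block of positive r (0.67 to 0.82, and 0.42 to 0.63 without the 4 libraries). Pdia4 has positive r with each of them (0.45 to 0.62, and 0.13 to 0.42), and Hspa5 pairs with Dnajb9 (0.73 in both).

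Hspa5 and Dnajb9 varied together among C1HR libraries. C1HR 11 had 1257 CPM of Hspa5 and 80.5 CPM of Dnajb9, and C1HR 7 had 973 and 82.0 CPM, the 2 highest values of each gene. C1HR 1, 2 and 3 were the lowest for Hspa5 (440.0 to 460.3 CPM) and had 45.9 to 48.9 CPM of Dnajb9. Over the 12 libraries Pearson's r was 0.91 (permutation p = 3e-05, 0.00135 adjusted over 45 pairs) and Spearman's rho 0.90 (permutation p = 0.00023, adjusted 0.0103), and r was 0.84 without the 2 libraries farthest from the median of Hspa5. Hsp90b1 with Pdia4 (r = 0.79, rho = 0.83; adjusted permutation p = 0.0261 and 0.0156), Creb3l2 with Atf6 (0.89 and 0.76; 0.00675 and 0.0481), Creb3l2 with Atf4 (-0.80 and -0.83; 0.0229 and 0.0156) and Atf4 with Atf6 (-0.77 and -0.78; 0.0355 and 0.0345) were the other pairs that passed for both coefficients. For these pairs r was 0.73, 0.81, -0.75 and -0.60 without the 2 libraries farthest from the median of the gene named first. Those 2 libraries can differ from pair to pair, and extremes of the gene named second stayed in. Creb3l1 with Hspa5 had r = -0.65 and rho = -0.59, and did not pass (adjusted permutation p = 0.0896 and 0.203). The C1HR libraries also differed in cell content, with an erythroid marker sum of 612 to 12920 CPM. Its part in these correlations was not tested, and the C1HR libraries that stood apart were not left out as a pair. The permutation p-values therefore say only that the levels of 2 genes varied together among these libraries.

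Around these regulators, 95 of 96 listed pathway genes were matched. Of 94 tested in the Sik2/3 experiment 15 were higher and 38 lower in labelled DKO, and of 93 tested in the C1HR experiment 56 were higher and 23 lower in C1HR. The lower ones in labelled DKO were 40.4% of those tested, beside 30.9% of all genes, and the higher ones are to be read beside 24.1% of all genes. In C1HR 60.2% were higher and 24.7% lower, beside 43.7% and 40.6% of all genes. The counts of the separate lists are to be read beside the same shares. With the blood lineage covariates 12 of 94 were higher and 5 lower in labelled DKO, and 30 of 93 higher and 9 lower in C1HR. The shares above do not apply to that fit, in which fewer of all genes passed in both experiments. Its totals over all genes are given in the closing section. The other genes of the CREB3 family had 3 of 3 lower in labelled DKO (median log2 fold change -0.85) and 2 of 2 tested higher in C1HR (1.70). Creb3l3, known from liver, averaged 17.3 ± 5.19 CPM in labelled DKO and 31.2 ± 7.33 CPM in labelled WT (log2 fold change -0.85, adjusted p = 0.00116), and 35.03 ± 6.82 CPM in C1HR against 8.23 ± 1.65 CPM in WT (2.09, adjusted p = 5.27e-14). Creb3 itself had -0.62 and 1.32, with 20.8% of its exonic bases shared with Gba2 and Tln1.

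Among sensors and processing proteases, 2 of 5 were higher and 2 lower in labelled DKO, and 4 of 5 were higher in C1HR. Mbtps1 and Mbtps2, the Golgi proteases that release ATF6 and the CREB3 factors, fell in labelled DKO, with log2 fold changes of -0.64 and -0.46, and rose in C1HR by 0.78 and 0.56 (adjusted p of 4.48e-11 and 1.79e-09). Exons of Mbtps2 share 28.4% of their bases with Yy2. Ern1, the IRE1 gene, rose in both, by 0.29 in labelled DKO (adjusted p = 0.00422) and by 0.65 in C1HR (adjusted p = 1.28e-08). Eif2ak3, the PERK gene, had -0.26 in labelled DKO without passing (adjusted p = 0.0951) and rose by 0.80 in C1HR. Without WT 5 and 6 it passed in labelled DKO, at -0.37 (adjusted p = 0.00319), as it did without WT 5 alone (-0.34, adjusted p = 0.0109). Atf6b, a paralog of Atf6, was at 0.20 in labelled DKO (adjusted p = 0.0446) and 0.09 in C1HR (adjusted p = 0.0842). The first call rested on single libraries: it was lost in 8 of the 16 fits that left out 1 library (adjusted p up to 0.094), with no filter on low counts (0.101) and with a replicate block (0.0667). The second passed in 3 of 23 such fits, without C1HR 7, C1HR 8 or C1HR 9 (adjusted p of 0.0327, 0.0335 and 0.0262).

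Targets of ATF4 and CHOP split in both directions: 6 of 16 were higher and 4 lower in labelled DKO (median 0.10), and 6 were higher and 7 lower in C1HR (median -0.08). Nupr1, a stress-induced chromatin protein, averaged 169 ± 34.2 CPM in labelled DKO and 336 ± 86.0 CPM in labelled WT (log2 fold change -0.99), and 291 ± 35.2 CPM in C1HR against 56.4 ± 6.22 CPM in WT (2.37, adjusted p = 2.89e-18). Ero1l, the ER oxidase, went the other way, with 0.88 in labelled DKO (adjusted p = 0.000119) and -1.05 in C1HR (adjusted p = 3.4e-11). Named after their values were seen, Asns and Slc7a11, for asparagine synthesis and cystine uptake, rose in labelled DKO by 0.62 and 1.64 and had -1.89 and -1.36 in C1HR, while Atf3 and Ddit4 had -0.9 and -1 in labelled DKO and rose in C1HR by 1.18 and 1.87. The call of Atf3 in labelled DKO (adjusted p = 0.0473) was lost without WT 5 and 6, where its value was -0.26 (adjusted p = 0.317). The other genes of the list called in C1HR were also named after their values were seen. Ppp1r15a had the largest change of the list there, -2.69 (adjusted p = 9.96e-08), and rose in labelled DKO by 1.39 (adjusted p = 4.21e-05). Shmt2, Mthfd2 and Sesn2 fell in C1HR (-0.90, -0.78 and -0.20), while Chac1, Trib3 and Cebpb rose (1.09, 0.70 and 0.20). Without the C1HR libraries that stood apart, Trib3 and Cebpb no longer passed (adjusted p = 0.283 and 0.298).

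Other ER chaperones stayed mostly uncalled in labelled DKO, with 1 of 12 higher and 3 lower (median -0.02), and were mixed in C1HR, with 4 higher and 3 lower (median 0.07). Sil1, a nucleotide exchange factor of BiP, had -0.95 in labelled DKO and 1.09 in C1HR, and Cnpy2 had -0.63 and 1.08, all past the threshold. Calr, Hyou1, Dnajb11, Manf and Creld2, named after their values were seen, passed in neither experiment, as Hspa5 and Hsp90b1 did not. Without WT 5 and 6 Calr passed in labelled DKO, at -0.34 (adjusted p = 0.00279), beside -0.24 (adjusted p = 0.106) with them. The rest of the list was also named after its values were seen. Sdf2l1 rose in labelled DKO (0.50, adjusted p = 0.00281) and fell in C1HR (-0.60, adjusted p = 0.000921). Dnajc10 fell in both (-0.20 and -0.28). Canx fell in C1HR (-0.36) and was uncalled in labelled DKO (0.14, adjusted p = 0.0658). Without WT 5 and 6 Canx passed there (0.18, adjusted p = 0.013). Dnajc3 and Cnpy3 rose in C1HR (0.37 and 0.30) and were uncalled in labelled DKO. Disulfide isomerases had 1 of 11 higher and 5 lower in labelled DKO (median -0.17), and 7 higher and 2 lower in C1HR (0.30). Pdia5 was at -0.77 and 1.5 and Txndc5, which assists collagen folding, at -0.58 and 1.21, all called. Genes of ER-associated degradation had 3 of 13 higher and 2 lower in labelled DKO (median -0.10), and 7 higher and 4 lower in C1HR (0.18). Sel1l, the ligase adaptor, and Os9, a lectin, were uncalled in labelled DKO (-0.12 and -0.23, adjusted p = 0.198 and 0.0967) and rose in C1HR by 0.63 and 0.57. Without WT 5 and 6 both passed in labelled DKO, Sel1l at -0.17 (adjusted p = 0.02) and Os9 at -0.34 (adjusted p = 0.000474). Sel1l also passed without WT 5 alone (adjusted p = 0.019), and Os9 without WT 5 or WT 6 alone (0.0119 and 0.0377).

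Of 17 translocon and signal peptide genes 1 was higher and 11 lower in labelled DKO (median -0.26), and 11 were higher and 5 lower in C1HR (0.25). Sec61a1, the translocon channel, had -0.54 in labelled DKO (adjusted p = 0.00531) and 0.92 in C1HR (adjusted p = 2.52e-13), and Sec63 had -0.26 and 0.78. Of 17 genes of COPII coats and ER export 1 was higher and 8 lower in labelled DKO (median -0.32), and 15 were higher and 2 lower in C1HR (0.84). Kdelr2, a receptor that returns ER residents, had -0.59 and 1.15, both called. Sec23a and Sec24d, coat subunits known in procollagen export, were at -0.30 and -0.38 in labelled DKO without passing (adjusted p = 0.077 and 0.0567), and rose in C1HR by 0.84 and 1.57. Sec24d passed in labelled DKO without WT 5 and 6 (-0.46, adjusted p = 0.0209), and without WT 5 or labelled DKO 7 alone (adjusted p = 0.0139 and 0.0169). Sec23a passed without WT 5 or labelled DKO 7 alone (adjusted p = 0.0492 and 0.012). With a replicate block both passed (adjusted p = 0.0193 for Sec23a and 0.0214 for Sec24d). Beside these counts, osteoblast markers had 5 of 12 lower in labelled DKO and 12 of 12 higher in C1HR, and their part in the pathway counts was not tested.

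**Figure D5:**
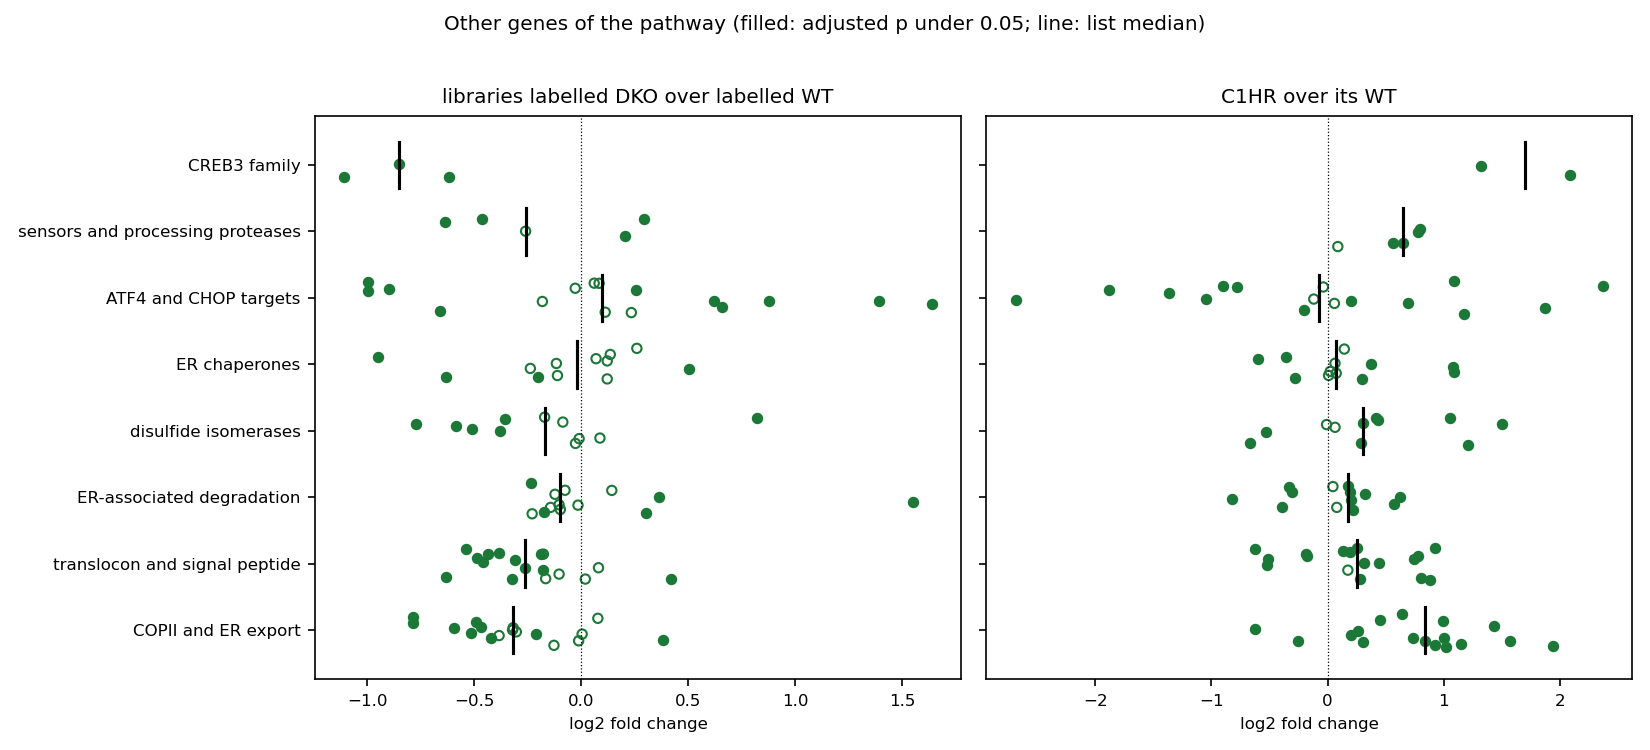
Log2 fold change of each gene in the 8 other pathway lists, labelled DKO over labelled WT on the left and C1HR over its WT on the right; filled points have an adjusted p under 0.05 and black lines are list medians. COPII and ER export has its median at -0.32 on the left and 0.84 on the right, while ATF4 and CHOP targets and ER chaperones spread around 0.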

How the data were processed

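RNA of femoral cortical bone was sequenced as single-end reads on a BGISEQ500 instrument, per the design text, from RNA with an integrity number above 8. The deposited values are whole-number counts per gene, which the authors made with STAR on mm9 and HTSeq 0.6.0 without strand, per the submitters' processing notes, the design text and the file names. The design text calls them CPM, but the columns hold whole numbers with unequal totals and were treated as unnormalized counts. Whether marrow was flushed in the C1HR experiment is given both ways in the sources, and neither was taken as settled. Gene counts per library were 22122742 to 23306853 in labelled DKO, 20324595 to 24922490 in labelled WT, 14909609 to 16370874 in C1HR and 11444686 to 13475805 in its WT, and 33.8% to 61.2% of reads fell in the 5 tallies of unassigned reads, which were left out. No libraries were identical. Names, exons and overlaps came from GENCODE vM1 (37168 of 37583 identifiers matched).

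Each experiment was fitted alone with edgeR 4.0.16 (filterByExpr with minimum count 10 and minimum total 15, TMM, robust quasi-likelihood test, Benjamini-Hochberg adjustment over all genes, threshold 0.05), and the difference of the effects in 1 fit of 39 libraries. All adjusted p are from this test unless another is named. SE is the log2 fold change over the root of F, and 95% intervals are normal. CPM were computed on TMM-scaled libraries (log2 values with prior count 2), and the log2 ratio has a pseudocount of 0.5. limma 3.58.1, DESeq2 1.42.0, R 4.3.3, Python 3.11.15, numpy 2.4.6, pandas 2.3.3, scipy 1.17.1 and matplotlib 3.10.9 were used for alternatives, summaries and figures. Tested on simulated data with 200 changed genes, the fit recovered 70.8% of 2-fold changes among 15319 genes of the Sik2/3 experiment and 96.9% among 13844 of the C1HR experiment. Of 1.5-fold changes it recovered 31.3% and 83.3%, so a small change uncalled in the Sik2/3 experiment may have been missed. The 200 changed genes are a far smaller share than the 55.0% and 84.3% of genes called in the data.

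The members and the 8 pathway and 9 marker lists were chosen with earlier results of these data known. From the pathway lists, the text names the 2 genes with the smallest p in either experiment and Ern1, Eif2ak3, Atf6b, Mbtps1, Mbtps2, Creb3, Sec23a and Sec24d by role, and says where others were added. Alternatives were another scaling, no filter, DESeq2, limma voom, a replicate block, blood lineage covariates, 1 fit of all libraries, a 2-fold minimum, other pseudocounts (0 and 2), and leaving out single libraries or the 4 that stand apart. The pathway counts under each alternative, and the difference of the effects with the Sik2/3 labels exchanged, were added after the data were seen.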

Additional observations from a re-analysis of the deposited data

Results flagged for a closer look

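Dixon's test set 3 values, in 2 labelled DKO libraries, apart from the rest of their group: labelled DKO 7 for Creb3l1 (322.7 CPM) and for Xbp1 (247.1 CPM), and labelled DKO 4 for Atf6 (109.2 CPM), each the highest. There were 22 groups of values tested in this way, of which chance picks about 1 in 20. That is fewer than the 10 regulators in each of 4 groups would give, so a value without a flag may not have been tested.

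Effects differed between the experiments for 7 of the 10 regulators, as the log2 change in C1HR minus that in labelled DKO: Creb3l1 3.07, Creb3l2 2.12, Dnajb9 1.11, Xbp1 0.92, Pdia4 0.75, Atf6 0.51 and Ddit3 -0.40. All of these rest on the labels of the Sik2/3 experiment, which Sik2 goes against. With those labels exchanged, 5 of the 7 still passed (Creb3l1 1.01, Creb3l2 0.99, Dnajb9 0.73, Xbp1 0.64 and Pdia4 0.38). Of the pathway genes named by smallest p or by role, 17 had a positive difference and an opposite or unequal change in the experiments. The largest were Nupr1 3.30, Creb3l3 2.88, Pdia5 2.21, Sil1 1.97, Sec24d 1.89, Creb3 1.87, Txndc5 1.73, Kdelr2 1.68 and Cnpy2 1.65. The others were Sec61a1 1.40, Mbtps1 1.36, Sec23a 1.08, Eif2ak3 0.99, Sec63 0.98, Mbtps2 0.96, Os9 0.73 and Sel1l 0.69. Ern1 rose in both experiments, and more in C1HR, by 0.29 (adjusted p = 0.014). Ero1l had the opposite difference, -1.99 (adjusted p = 2.18e-14). With the labels exchanged Ero1l, Mbtps1, Mbtps2 and Sil1 no longer passed (-0.16, 0.17, 0.12 and 0.17).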

How the results depend on the processing

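Of single-gene values under the alternatives, 2803 kept their direction and side of the threshold, 43 newly passed it, 40 no longer did and 54 changed sign; the cause was not tested. With the blood lineage covariates 2187 of 15479 genes passed the threshold in the Sik2/3 experiment and 6226 of 13976 in C1HR, with 0 members lower in either. Of 94 pathway genes 12 were then higher and 5 lower in labelled DKO. Of 93 in C1HR 30 were higher and 9 lower. These pathway counts are to be read beside those totals over all genes. Signs changed in labelled DKO for Creb3l1 (0.49), Creb3l2 (0.20), Atf4 (0.21), Atf6 (0.055), Xbp1 (0.17), Hspa5 (0.16), Ddit3 (0.076), Hsp90b1 (-0.18), Pdia4 (0.067), Eif2ak3 (0.39, adjusted p = 0.0405), Mbtps1 (0.0165), Os9 (0.35), Pdia5 (0.062), Sec24d (0.087), Sec61a1 (0.28), Sec63 (0.062) and Sel1l (0.24), and in C1HR for Atf4 (0.10), Hspa5 (-0.53), Ddit3 (0.40), Hsp90b1 (-0.10) and Atf6b (-0.11).

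A 2-fold minimum left 2695 of 15479 genes for labelled DKO (17.4%), 5430 of 13976 for C1HR (38.9%) and 8128 of 15387 for the difference. Of the 10 members it left 1 lower in labelled DKO, 2 higher and 0 lower in C1HR, and 3 higher and 0 lower for the difference. Those member counts are to be read beside the totals over all genes. DESeq2 size factors left 3 members lower in labelled DKO, voom called 1 higher (Hsp90b1), leaving out C1HR 8 and 9 gave 2 lower in C1HR, and no filter on low counts gave 0 lower for the difference. The shares of all genes called under these alternatives are not given here, so the counts do not set the members against other genes. Leaving out 1 library gave 0 to 1 lower for the difference; the count was 0 without labelled WT 3, labelled WT 6 or C1HR 2. With the labels of the Sik2/3 experiment exchanged, an alternative added after seeing the data, the difference had 0 members and 14 pathway genes lower, and the signs of Atf4 (-0.22), Atf6 (-0.089) and Atf6b (0.32) turned.

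With limma voom and quality weights, Eif2ak3, Os9, Sel1l and Sec24d passed in labelled DKO (adjusted p = 0.00262, 3.48e-05, 0.0106 and 0.0049), as did Atf4 and Xbp1 (0.00751 and 0.0157). In the fit of 39 libraries Sec23a and Sec24d passed (0.0302 and 0.0252).

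Values near 0 changed sign: in labelled DKO Hspa5 (0.039 with DESeq2 size factors and with DESeq2, 0.026 in the fit of 39 libraries, -0.046 to 0.045 leaving out 1 library) and Ddit3 (0.017, 0.018, 0.0042, and -0.069 to 0.024), in C1HR Atf4 (-0.028 to 0.024 leaving out 1 library), and Hsp90b1 in the difference (-0.026 with DESeq2 size factors, -0.021 to 0.049 leaving out 1 library). The log2 ratio of Creb3l1 to Creb3l2 in the Sik2/3 experiment was -0.57 without labelled WT 5 and 6, and -0.46 to -0.31 leaving out 1 library.

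Groups share replicate numbers, but these did not pair libraries: correlations of same-numbered libraries ran from -0.256 to 0.309 in the Sik2/3 experiment (5 of 8 over 0.1, 2 best with their own number) and -0.182 to 0.341 in C1HR (4 of 11, 2 best). With a replicate block 8422 and 11506 genes passed, 5 members were lower in labelled DKO and 6 higher in C1HR, the ratio differed by -0.37 (exact permutation p = 0.0625) and 0.50, and Atf4 in C1HR was at 0.0173. The block brought Sec23a and Sec24d past the threshold in labelled DKO and took Atf6b below it, and changed no other call of a regulator or of a pathway gene named by the rule. Depth limits Ddit3, with 107 reads in its lowest library, more than the other members.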
